A study of Homo sapiens with 6 samples.

Results

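The vascular endothelial growth factor (VEGF) family was followed through PRMT5 knockdown in NCI-H460 cells by 9 genes taken by symbol from the 58825 genes of the expression tables. They were 4 ligands (VEGFA, VEGFB, VEGFC and PGF), 3 receptor tyrosine kinases (FLT1, KDR and FLT4) and 2 neuropilin co-receptors (NRP1 and NRP2). NCI-H460 is an established human lung cancer line, labelled as lung adenocarcinoma and commonly classed as large cell carcinoma. All 6 cultures carried a lentiviral short hairpin RNA. By the sample titles it was directed against GFP in 3 control samples (NC-shRNA), whereas the paper speaks of a control shRNA and names no target for it. In 3 knockdown samples (PRMT5-shRNA) it was directed against PRMT5, an arginine methyltransferase that places symmetric dimethyl marks on histones and other proteins. The labels do not say which PRMT5 hairpin was sequenced, and the control is a single hairpin target, so an effect of the hairpin and an effect of lower PRMT5 cannot be told apart. The paper calls the samples biological replicates, while the labels only number them. The p-values set the difference of the groups against the spread between these samples. Whether that spread includes the one between separate infections is not known.

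VEGF ligands are secreted dimers that bind receptor tyrosine kinases carried mainly by endothelial cells. VEGF-A drives blood vessel growth through KDR and also binds FLT1, which binds it tightly and signals weakly. VEGF-B and placental growth factor (PGF) bind FLT1, whereas VEGF-C and VEGF-D bind FLT4 and drive the growth of lymphatic vessels, and once fully cleaved they also bind KDR. Neuropilins have no kinase of their own: they present VEGF ligands to the receptors and also bind class 3 semaphorins together with plexins. Tumour cells are known above all as a source of the ligands.

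The total estimated count per library ranged from 53531257 to 70518401, and low counts gathered at multiples of 4, so counts are not numbers of fragments. CPM is a count relative to the library size, scaled by TMM to even out the composition of the libraries. PRMT5, the targeted gene, had 143, 127 and 128 CPM in the control libraries and 45.8, 45.6 and 38.3 after knockdown. PRMT5 was thus at 32.6% of its control level, a log2 fold change of -1.62 (SE 0.0943, edgeR quasi-likelihood test, adjusted p = 0.0063). Keratins mark epithelial cells, and KRT8 stood at 904 ± 28.0 and KRT18 at 554 ± 58.0 CPM in NC-shRNA cells (SD, n = 3), whereas the epithelial adhesion genes EPCAM and CDH1 had only 1.52 and 1.01 CPM. The antisense gene PRMT5-AS1 lies over PRMT5, and whether counting used strand is not given in the sources used here.

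Of the 9 family members, 8 were tested and FLT1 was removed by the filter on low counts. None of the 8 passed an adjusted p of 0.05 in edgeR, where 0.0690% of the 20295 genes tested passed in either direction. KDR passed the filter only through the PRMT5-shRNA libraries and so had to differ, and it is left out of the counts of members that follow. Of the other 7 members 1, VEGFC, had an unadjusted p under 0.05, a share near the 12.8% of all genes tested with such a p. VEGFC was also past looser thresholds (a fold over 1.5 besides that unadjusted p) in the higher direction, which 2.53% of all genes tested passed, and no member was past them in the lower direction, against 1.29% of all genes. In DESeq2, VEGFC had an adjusted p under 0.05, where 1.81% of the 16723 genes with an adjusted p were called higher. For 3 of the 7, VEGFA, VEGFC and NRP2, all knockdown libraries were above all control libraries, which held for 11.0% of all genes tested.

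**Figure D1:**
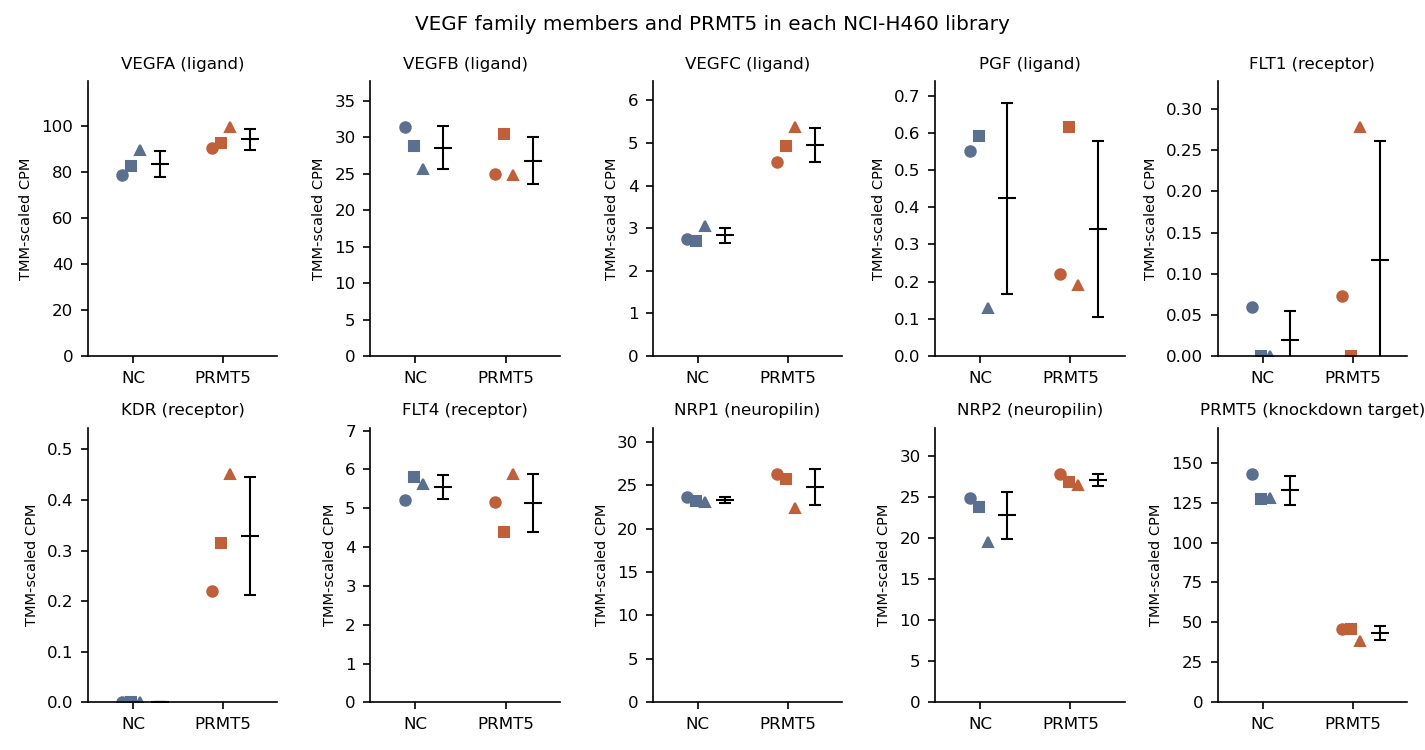
TMM-scaled CPM (y axis, from 0, a separate range in each panel) of the 9 VEGF family members and PRMT5 in NC-shRNA (NC) and PRMT5-shRNA (PRMT5) libraries, where circle, square and triangle are replicates 1, 2 and 3 and the black bar is the mean ± SD (n = 3), clipped at 0. VEGFC lies between 2.71 and 3.04 CPM in control cells and between 4.56 and 5.37 after knockdown, KDR is at 0 in every NC-shRNA library, and the groups of VEGFB, PGF, FLT1, FLT4 and NRP1 overlap.

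Among the ligands, VEGFC differed most between the groups relative to its spread. VEGFC (ENSG00000150630) is a minus-strand gene on chromosome 4 (GRCh38 as for all members, 176683538 to 176792727). Its counts were 184, 188 and 189 in control cells and 249, 344 and 309 in knockdown cells. In CPM these were 2.74, 2.71 and 3.04 against 4.56, 4.92 and 5.37. The lowest knockdown library was thus well above the highest control library. VEGFC was 1.75-fold higher in PRMT5-shRNA (95% confidence interval 1.38 to 2.21), a log2 fold change of 0.81 (SE 0.144). Its unadjusted p of 0.000844 ranked 107 among all genes in edgeR, where the adjusted p was 0.160. DESeq2 gave a log2 fold change of 0.80 and an adjusted p of 0.00241, so whether VEGFC passed depended on the tool. On simulated counts DESeq2 recovered 92% of 2-fold changes and edgeR 69%. Of the calls there, 83 of 273 were false in DESeq2 and 13 of 178 in edgeR. The counts were simulated once, with spreads taken from the edgeR fit and changes placed only in genes above a minimum count. These shares therefore need not hold for VEGFC at its 1.75-fold difference. Whether the call of VEGFC is a true or a false one was not tested. The exact two-sided permutation test of its CPM gave p = 0.10, as low as 3 against 3 libraries can reach.

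The promoter of VEGFC is shown because it is the ligand with the clearest difference between the groups. RefSeq (GRCh38.p14) starts the gene upstream of the GENCODE start used above, and the 250 bases before the RefSeq start lie at chr4:176792923-176793172 on the minus strand. Capitals mark GC boxes (GGGCGG, or CCGCCC on the other strand), the letters bound by Sp1-type factors.
VEGFC promoter: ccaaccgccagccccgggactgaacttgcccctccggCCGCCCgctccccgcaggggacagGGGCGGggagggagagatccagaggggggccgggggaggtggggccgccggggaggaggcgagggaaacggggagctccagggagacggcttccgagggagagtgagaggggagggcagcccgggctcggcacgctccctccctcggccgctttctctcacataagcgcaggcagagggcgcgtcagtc
This window held 2 GC boxes, a motif found in 42.6% of 35116 RefSeq promoter windows of the same length searched on both strands. Its GC content was 74.0%, against a median of 58.0% over those windows. The letters ACGTG (18.5% of windows), the core of hypoxia response elements, TGACTCA (4.2% of windows), an AP-1 site, and TATAAA (10.7% of windows) did not occur in it.

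VEGFA (ENSG00000112715, plus strand of chromosome 6, 43770184 to 43786487) encodes the main ligand of blood vessel growth. It had 78.6, 82.5 and 89.5 CPM in the control libraries and 90.3, 92.7 and 99.5 in the knockdown libraries. The groups did not overlap, but the highest control and the lowest knockdown library were almost at the same level. The fold was 1.13 (95% confidence interval 0.999 to 1.27), a log2 fold change of 0.17 (SE 0.0733, edgeR unadjusted p = 0.0516, adjusted p = 0.393). The counts sum all splice forms of VEGFA, so the diffusible and heparin-binding isoforms were not told apart.

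The ratio of VEGFC to VEGFA within a library does not depend on how libraries are scaled. It was 0.0348, 0.0329 and 0.0340 in control cells and 0.0505, 0.0531 and 0.0540 after knockdown. The ratio was thus higher in every knockdown library than in any control library, and the libraries of a group lay close together. VEGFC alone was already apart in the same way, so the ratio restates that difference and is no separate result. How many pairs of genes show such a pattern was not counted.

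VEGFB (ENSG00000173511, plus strand of chromosome 11, 64234538 to 64238793) had 31.4, 28.8 and 25.6 CPM in control cells and 25.0, 30.5 and 24.9 after knockdown. These ranges overlapped, and the fold was 0.936 (95% confidence interval 0.768 to 1.14, edgeR adjusted p = 0.782). PGF (ENSG00000119630, minus strand of chromosome 14, 74941834 to 74955784) had 37, 41 and 8 counts against 12, 43 and 11. Each group held libraries at about 10 and at about 40 counts, and the fold of 0.812 had a 95% confidence interval from 0.247 to 2.67 (edgeR adjusted p = 0.898). The interval includes no change and folds well away from it in both directions, and the direction of PGF turned on 1 library: the log2 fold change was -0.30 with all libraries and 0.01 without NC-shRNA replicate 2. VEGFD, the remaining lymphatic ligand, was no member of the set of 9 and is described with the maturation genes.

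Of the receptors, FLT4 was the only one with counts in every library. FLT4 (ENSG00000037280, minus strand of chromosome 5, 180601506 to 180649624), the receptor of VEGF-C and VEGF-D, had 5.21, 5.80 and 5.63 CPM in control cells and 5.15, 4.39 and 5.89 after knockdown. The groups overlapped, with the highest and the lowest value both in PRMT5-shRNA, and the fold was 0.927 (95% confidence interval 0.723 to 1.19, edgeR adjusted p = 0.802). FLT1 (ENSG00000102755, minus strand of chromosome 13, 28300344 to 28495145) had 4, 0 and 0 counts in control cells and 4, 0 and 16 after knockdown. Such counts correspond to a handful of fragments, and FLT1 was left out of the fit.

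KDR, the main signalling receptor of VEGF-A, had no count in any NC-shRNA library and 12, 22 and 26 counts in the PRMT5-shRNA libraries. KDR (ENSG00000128052) is on the minus strand of chromosome 4, at 55078259 to 55125595. In CPM the knockdown libraries stood at 0.220, 0.315 and 0.452, a mean of 0.329 ± 0.117 (SD, n = 3). Per gene length KDR was still far below FLT4 there, at 0.0433 ± 0.0153 against 0.50 ± 0.080 FPKM. Read against 3 counts per library, the upper limit that a count of 0 allows, KDR was at least 7.24-fold higher in PRMT5-shRNA. Read against 12 counts, which is 3 fragments if each gives 4 counts, it was at least 1.81-fold higher. These bounds cover counting error in the control libraries only and take the PRMT5-shRNA counts as exact. The edgeR test gave an unadjusted p of 0.00157 and an adjusted p of 0.183, DESeq2 gave no adjusted p, and filters on counts divided by 4 or on a CPM of 1 removed the gene. KDR was among 11 genes at 0 in every NC-shRNA library and at 10 or more counts in every PRMT5-shRNA library, against 7 genes with the opposite pattern.

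The KDR promoter is shown because the transcript was seen only in knockdown libraries. RefSeq and GENCODE start KDR at the same base, and the 250 bases before it lie at chr4:55125596-55125845 on the minus strand of GRCh38.p14, with GC boxes in capitals.
KDR promoter: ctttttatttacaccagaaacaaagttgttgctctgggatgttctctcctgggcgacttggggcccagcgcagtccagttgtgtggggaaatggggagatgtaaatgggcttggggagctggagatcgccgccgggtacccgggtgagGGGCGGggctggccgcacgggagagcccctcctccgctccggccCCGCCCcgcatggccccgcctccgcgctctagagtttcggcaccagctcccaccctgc
Like the VEGFC window it held 2 GC boxes and none of the other 3 motifs searched, and its GC content was 65.2%. The FLT1 window held 3 GC boxes and 1 TATAAA. The windows of VEGFB, PGF and NRP2 held 6, 2 and 3 GC boxes and none of the other motifs. RefSeq windows were found for 6 of the 9 members. VEGFA, FLT4 and NRP1 were not matched.

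KDR is normally carried by endothelial cells, so the markers of that cell type are given beside it. Of 18 endothelial marker genes, 8 were at 0 in every NC-shRNA library. Of these 8, VWF, CLEC14A and RHOJ had counts in every PRMT5-shRNA library, and TIE1, EMCN, ICAM2, ECSCR and LYVE1 in only 1 or 2 of them, with at most 11 counts. VWF, which encodes von Willebrand factor, had 128, 105 and 122 counts against 0 in each control library, with an edgeR adjusted p of 0.0341. Like KDR, VWF, CLEC14A and RHOJ passed the filter only through the PRMT5-shRNA libraries and so had to differ. PECAM1, an adhesion molecule of endothelial junctions, had 30, 5 and 8 counts in control cells and 104, 100 and 109 after knockdown, a log2 fold change of 3.0 (adjusted p = 0.188). In contrast, the transcription factor gene ERG had 250, 238 and 277 counts in control cells already, with overlapping groups and a log2 fold change of 0.04. The junction gene CDH5 also had 651, 746 and 597 counts there. Its log2 fold change was 0.30 (edgeR unadjusted p = 0.0444, adjusted p = 0.376), with all knockdown libraries above all control libraries in CPM (11.0% of all genes tested). Of the 11 markers tested, 9 were higher and 2 lower, SOX17 (-0.49) and PLVAP (-0.18). An unadjusted p under 0.05 was found for 6 (12.8% of all genes tested), among them VWF, CLEC14A and RHOJ. The summed level of the 18 markers ranged from 15.6 to 16.6 CPM in control and from 21.3 to 25.4 in knockdown cells. Without VWF, CLEC14A and RHOJ, whose difference was known beforehand, the sums were 15.6 to 16.6 and 19.2 to 22.8 CPM. Of the 8 markers then tested, 2, PECAM1 and MMRN2, were past the looser thresholds in the higher direction, against 2.53% of all genes tested. Neither would have passed the low-count filter by its control libraries alone, so the filter favoured a higher value in PRMT5-shRNA. The part of endothelial cells in the KDR values was not tested, and in a bulk sample fewer or more cells of a type and less or more RNA per cell cannot be told apart.

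**Figure D2:**
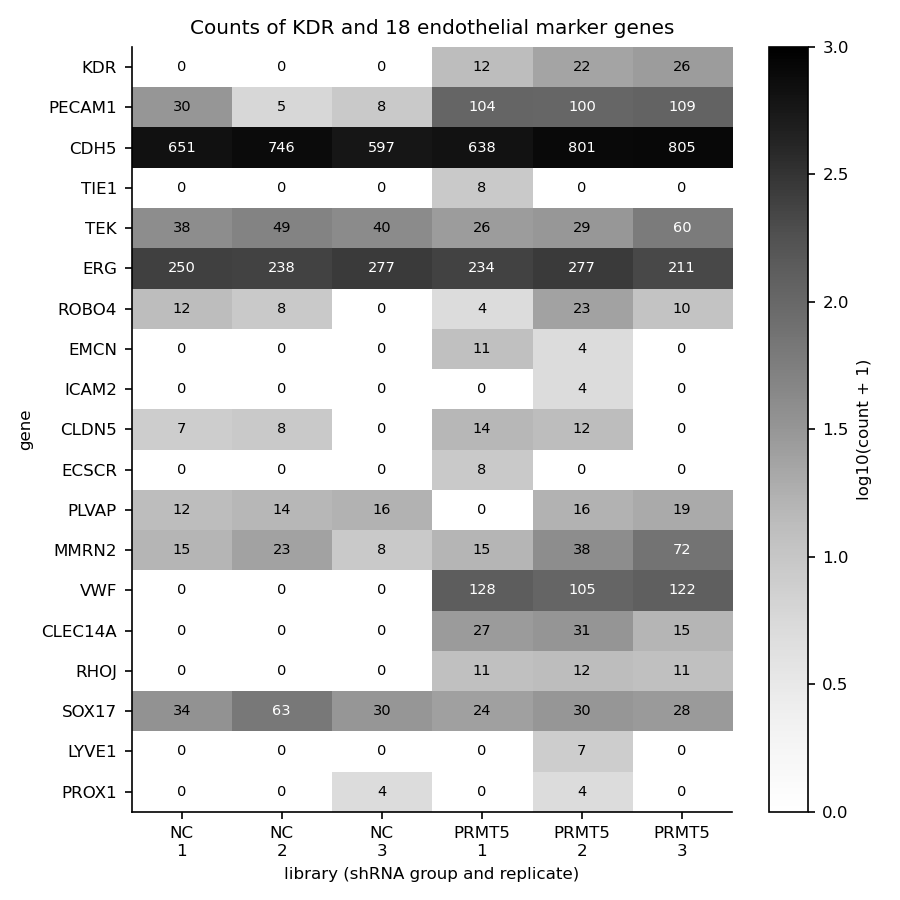
Estimated counts of KDR and 18 endothelial marker genes (rows) in the 6 libraries (columns), with the count printed in each cell and the shade giving log10(count + 1). KDR, VWF, CLEC14A and RHOJ are at 0 in the 3 NC-shRNA libraries and above 0 in the 3 PRMT5-shRNA libraries, CDH5 and ERG are high in all 6, and TIE1, EMCN, ICAM2, ECSCR and LYVE1 are at or near 0 throughout.

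Markers of the remaining cell types showed no adjusted p under 0.05. Leukocyte markers summed to 1.93 to 2.83 CPM in control and 2.31 to 3.25 in knockdown cells, with CD3E at 0 in all libraries, and 0 of the 2 tested had an unadjusted p under 0.05. Fibroblast markers summed to 117 to 142 against 110 to 132 CPM, with COL1A2 at 0 in all libraries. Of the 5 fibroblast genes tested, 1, COL3A1, was past the looser thresholds at 0.87 on the log2 scale (edgeR adjusted p = 0.110). Among all genes tested 2.53% passed them in this direction. Epithelial markers summed to 1800 to 1950 against 1570 to 1690 CPM, a sum carried mostly by KRT8 and KRT18. Their log2 fold changes were above 0 for 1 gene and below for 7. Of the 8 epithelial genes, 1, KRT8, had an unadjusted p under 0.05 (log2 fold change -0.23, edgeR adjusted p = 0.251), against 12.8% of all genes tested. KRT8 overlaps KRT18, and MMRN2 overlaps SNCG and ADIRF-AS1, so counting could divide reads between them.

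Of the neuropilins, NRP2 was apart between the groups and NRP1 was not. NRP2 (ENSG00000118257, plus strand of chromosome 2, 205681990 to 205798133), which pairs with FLT4 and binds VEGF-C, had 24.9, 23.8 and 19.5 CPM in control cells and 27.8, 26.8 and 26.4 after knockdown. The groups did not overlap, the control libraries were the more spread, and NC-shRNA replicate 3 was the lowest. The fold was 1.19 (95% confidence interval 0.989 to 1.42), a log2 fold change of 0.25 (SE 0.110, edgeR unadjusted p = 0.0614, adjusted p = 0.410). NRP1 (ENSG00000099250, minus strand of chromosome 10, 33177492 to 33336262), which pairs with KDR and binds VEGF-A, had 23.6, 23.2 and 23.0 CPM against 26.3, 25.7 and 22.4. PRMT5-shRNA replicate 3 lay below all control libraries, and the fold was 1.07 (95% confidence interval 0.918 to 1.24, edgeR adjusted p = 0.715). The ratio of NRP2 to NRP1 ranged from 0.849 to 1.06 in control and from 1.04 to 1.18 in knockdown cells, so it overlapped. Genes that GENCODE places over VEGFA, VEGFC, KDR, NRP1 and NRP2 had at most 4 counts in any library.

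Levels between genes need a scale per gene length, for which the deposited FPKM (fragments scaled to gene length and library size) were read first. In NC-shRNA cells VEGFB stood at 15.5 ± 1.24 and VEGFA at 4.85 ± 0.423 FPKM (SD, n = 3 here and below). They were followed by NRP1 at 1.69 ± 0.0173, NRP2 at 1.36 ± 0.142, VEGFC at 0.907 ± 0.0723 and FLT4 at 0.520 ± 0.0346 FPKM. PGF at 0.0600 ± 0.0346 came last among the detected members, and FLT1 and KDR were listed at 0. No neighbouring pair in this order from VEGFB down to PGF overlapped between its 3 control libraries. In PRMT5-shRNA cells NRP2, at 1.66 to 1.74 FPKM, overlapped both NRP1 at 1.71 to 1.99 and VEGFC at 1.52 to 1.80.

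The place of VEGFA relative to VEGFB depended on the length used. The FPKM corresponded to the merged length of all annotated exons of a gene: over 11232 genes with an FPKM of 1 or more, the length implied by count and FPKM was 1.17 times the merged exon length (10th to 90th percentile 1.15 to 1.18). For VEGFA the merged exons of 32 transcripts span 14431 bases, the longest coding transcript 3535 bases and the principal transcript in the APPRIS annotation 1199 bases. For VEGFB these lengths are 1545, 1380 and 1380 bases. VEGFB exceeded VEGFA 3.20-fold in FPKM, whereas VEGFA exceeded VEGFB 1.14-fold in CPM per kilobase of the longest coding transcript (23.6 ± 1.56 against 20.7 ± 2.11, with overlapping libraries) and 3.37-fold per kilobase of the principal transcript (69.7 ± 4.61 against 20.7 ± 2.11). The remaining members kept their order, with 3.96 for NRP1, 3.42 for NRP2, 1.37 for VEGFC, 0.947 for FLT4 and 0.220 for PGF in CPM per kilobase of the longest coding transcript in NC-shRNA cells. On each of these 3 scales the lymphatic pair VEGFC and FLT4 stood below VEGFA, VEGFB and the neuropilins in control cells.

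**Figure D3:**
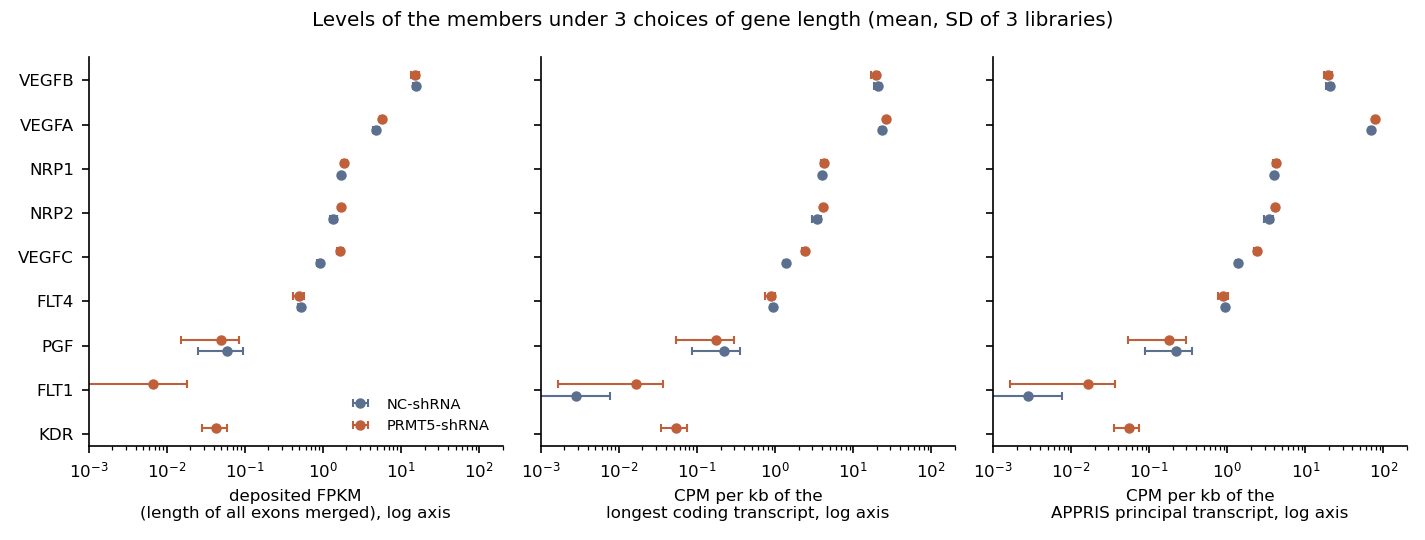
Mean level (x axis, log scale) of each VEGF family member in NC-shRNA and PRMT5-shRNA cells as deposited FPKM (left), CPM per kilobase of the longest coding transcript (middle) and CPM per kilobase of the APPRIS principal transcript (right), with bars for the SD of 3 libraries. Values of 0, as for KDR in NC-shRNA, are not drawn on a log axis; VEGFB is highest on the left at 15.5 FPKM in NC-shRNA and VEGFA is highest on the right at 69.7 CPM per kilobase.

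VEGF-C and VEGF-D are made as precursors that proteases trim stepwise. Of 11 genes for VEGFD and the proteins that process the lymphatic ligands, 7 were tested, and 2 had log2 fold changes above 0 and 5 below. None had an adjusted p under 0.05 in edgeR, and 3 had an unadjusted p under 0.05 (12.8% of all genes tested). Past the looser thresholds were 2, both lower, against 1.29% of all genes tested. The median log2 fold change was -0.09, beside 0.01 over all genes tested, and it ran from -0.17 without PRMT5-shRNA replicate 3 to 0.02 without PRMT5-shRNA replicate 1. ADAMTS2, a procollagen N-proteinase, had 212, 173 and 143 counts in control cells and 81, 104 and 68 after knockdown, a log2 fold change of -0.94 (SE 0.211, edgeR adjusted p = 0.203). ADAMTS3, the protease that cleaves pro-VEGF-C, had 207, 234 and 191 counts against 94, 181 and 102, a log2 fold change of -0.65 (SE 0.209, edgeR adjusted p = 0.302). In both, every knockdown library was below every control library in CPM, which held for 10.7% of all genes tested. FURIN, a proprotein convertase that trims the VEGF-C precursor and is named here after its values were seen, was at 100 ± 4.52 CPM in control and 123 ± 6.11 in knockdown cells, a log2 fold change of 0.29 (adjusted p = 0.203). CCBE1, the cofactor of ADAMTS3, had 8 counts in 1 library of each group and none in the others. VEGFD had 112, 172 and 152 counts against 73, 154 and 130, with overlapping groups and a log2 fold change of -0.18 (SE 0.277, edgeR adjusted p = 0.819).

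All 14 neuropilin partners (class 3 semaphorins, plexins, GIPC1 and L1CAM) were tested, 9 with log2 fold changes above 0 and 5 below. Their median was 0.09, and 0.04 without NC-shRNA replicate 2 and 0.06 without PRMT5-shRNA replicate 1. None passed an adjusted p of 0.05 in edgeR, and 4 had an unadjusted p under 0.05 (12.8% of all genes tested). Past the looser thresholds were 2, both higher, against 2.53% of all genes tested. In the 4 with an unadjusted p under 0.05, every knockdown library was above every control library. A low p makes that likely, and it held for 11.0% of all genes tested. SEMA3A, a repulsive guidance cue that binds NRP1, was at 59.8 ± 7.37 CPM in control and 94.0 ± 11.7 in knockdown cells, a log2 fold change of 0.65 (SE 0.123, edgeR adjusted p = 0.168). SEMA3D was at 14.4 ± 1.97 against 22.3 ± 4.56 CPM, a log2 fold change of 0.63 (SE 0.179, edgeR adjusted p = 0.262). SEMA3C and the plexin PLXNA2, named after their values were seen, had log2 fold changes of 0.34 and 0.27. SEMA3B and SEMA3F, which act through neuropilins too, had log2 fold changes of -0.02 and -0.19. The summed level of the 14 genes was 838 to 877 CPM in control and 908 to 962 in knockdown cells.

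**Figure D4:**
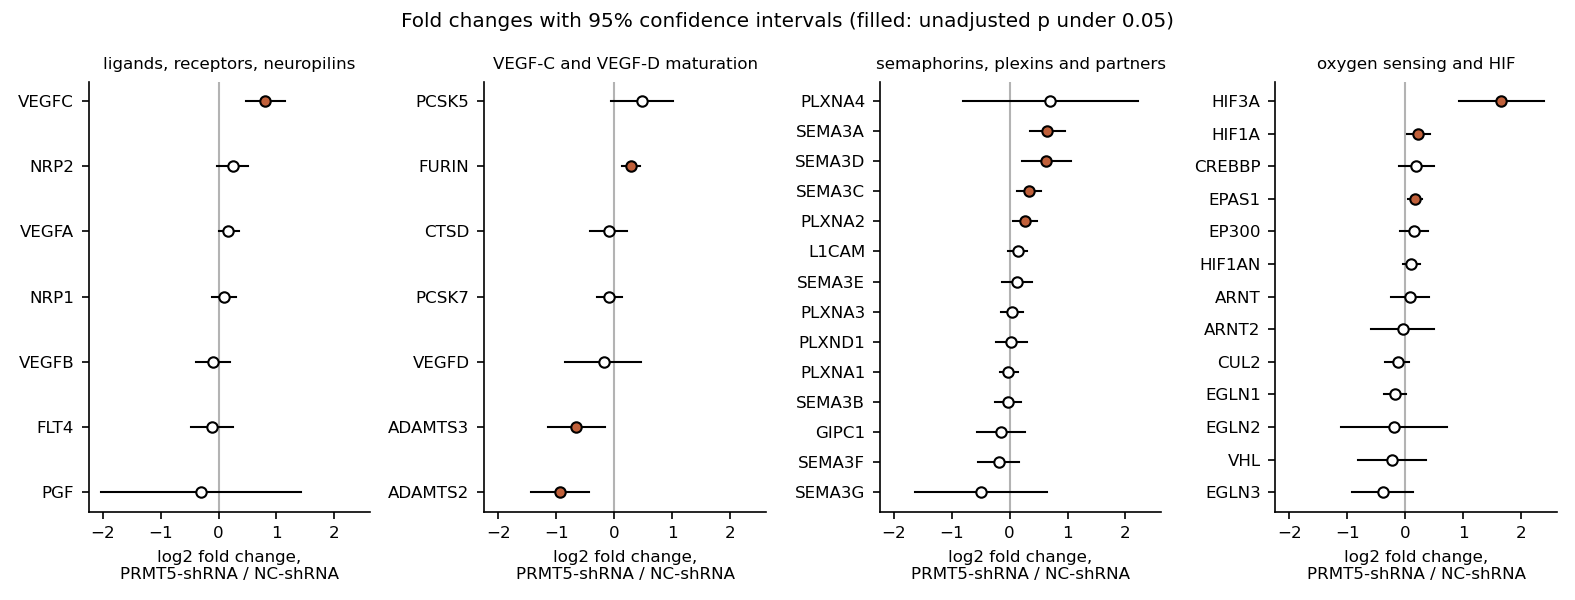
Log2 fold change of PRMT5-shRNA over NC-shRNA (x axis) with its 95% confidence interval for the tested members of 4 gene groups, from the edgeR fit on 3 libraries per group, with an unadjusted p under 0.05 in filled points. KDR, which is at 0 in NC-shRNA, and untested genes are not drawn; VEGFC at 0.81, SEMA3A at 0.65 and HIF3A at 1.66 lie to the right of 0, and ADAMTS2 at -0.94 lies to the left.

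The genes that carry the signal of VEGF receptors inside the cell showed about as many higher as lower values. All 42 were tested, 22 with log2 fold changes above 0 and 20 below, and the median of 0.01 equalled that of all genes and was at most 0.03 with a library left out, without NC-shRNA replicate 1. None passed an adjusted p of 0.05 in edgeR, and 8 had an unadjusted p under 0.05 (12.8% of all genes tested). Past the looser thresholds were 3, all higher, against 2.53% of all genes tested. These were the calcineurin-regulated transcription factor genes NFATC4 (2.28 ± 0.113 against 4.52 ± 1.01 CPM, log2 fold change 0.99, edgeR adjusted p = 0.183) and NFATC2 (log2 fold change 0.60, edgeR adjusted p = 0.323), and the protein kinase C gene PRKCB (log2 fold change 0.84, edgeR adjusted p = 0.295). Every knockdown library was above every control library for 11 of the 42 genes and below for 4. Among all genes tested these patterns held for 11.0% and 10.7%. PLCG1, the phospholipase that KDR and FLT4 recruit, was at 81.0 ± 3.89 against 77.3 ± 0.308 CPM, a difference within the spread of the control libraries. NOS3, the nitric oxide synthase of endothelial cells, had 12, 0 and 4 counts against 24, 21 and 14. It is among the 11 genes above, but its control libraries alone would not have passed the low-count filter. PLCG1 and NOS3 were chosen for their roles after their values were seen.

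Hypoxia-inducible factors (HIF) switch on VEGFA when oxygen is short. Of 13 genes for oxygen sensing and HIF, all tested, 7 had log2 fold changes above 0 and 6 below. Their median was 0.09, and it ran from 0.06 without NC-shRNA replicate 1 to 0.14 without NC-shRNA replicate 2. None passed an adjusted p of 0.05 in edgeR, and 3 had an unadjusted p under 0.05 (12.8% of all genes tested). Past the looser thresholds was 1, in the higher direction, against 2.53% of all genes tested. This was HIF3A, the HIF alpha gene with the lowest FPKM here, with 22, 18 and 22 counts in control cells and 47, 77 and 59 after knockdown, a log2 fold change of 1.66 (SE 0.311, edgeR adjusted p = 0.168). HIF1A and EPAS1, which encode the main HIF alpha subunits and are named after their values were seen, had log2 fold changes of 0.23 (346 ± 23.1 against 407 ± 36.4 CPM) and 0.17 (216 ± 6.51 against 243 ± 4.51 CPM), with edgeR adjusted p of 0.323 and 0.282. HIF1A is overlapped by antisense genes of far lower counts. HIF alpha proteins are regulated mainly by their degradation, which transcript counts do not measure.

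Of 23 other secreted angiogenic factors and inhibitors 21 were tested, 14 with log2 fold changes above 0 and 7 below, and no adjusted p was under 0.05 in edgeR. Their median was 0.19, and 0.08 to 0.16 with any 1 library left out, lowest without PRMT5-shRNA replicate 2. The only gene with an unadjusted p under 0.05 (12.8% of all genes tested) was APLN, which encodes the vessel growth peptide apelin. APLN was at 0.904 ± 0.105 against 1.74 ± 0.261 CPM (log2 fold change 0.94, SE 0.229, edgeR adjusted p = 0.218). Its receptor gene APLNR had no count in any library. Of 15 other angiogenic receptor genes 9 were tested, 6 with log2 fold changes above 0 and 3 below. Their median was 0.10, and 0.04 without NC-shRNA replicate 1, 0.16 without PRMT5-shRNA replicate 1 and 0.17 without PRMT5-shRNA replicate 2. None of them passed an adjusted p of 0.05 in edgeR and 0 were past the looser thresholds. An unadjusted p under 0.05 (12.8% of all genes tested) was seen for 2 genes. These were the PDGF receptor gene PDGFRB with a log2 fold change of 0.57 (SE 0.146, edgeR adjusted p = 0.231) and the FGF receptor gene FGFR3 with -0.46 (SE 0.171, edgeR adjusted p = 0.341). PDGFRA and FLT3, kinases related in structure to the VEGF receptors, had no count in any library.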

How the data were processed

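RNA of 6 NCI-H460 cultures was sequenced as stranded mRNA libraries. The submitters' processing notes name cutadapt 1.9, HISAT2 2.0.4, StringTie 1.3.4d and GRCh38. By the methods, Hisat2 mapped the reads and StringTie and Ballgown gave expression (there the assembly is GRCm38, a mouse build). The authors deposited estimated counts that were not normalized and already whole. The authors also deposited FPKM, normalized for gene length and library size. Use of strand in counting is not given in the sources used here.

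The 9 members, the gene lists and the looser thresholds were chosen with earlier results of these data known. Counts were scaled by TMM, filtered by filterByExpr with the group (20295 of 58825 genes kept) and tested with edgeR 4.0.16 (R 4.3.3) by the quasi-likelihood test on the group alone, with Benjamini-Hochberg adjustment over all genes tested. An exact permutation test (two-sided) was run on each member's CPM. Named in the text are all members and PRMT5. Of each list those with an adjusted p under 0.05 are named, then up to 4 past the looser thresholds by smallest p, otherwise the 2 with the smallest p. Any other list gene was named for its role after its values were seen. Likeness to VEGFA, KDR and NRP1 is given for the 3 genes with the highest correlation. Positions and lengths came from GENCODE release 29, in which 58552 gene identifiers were found, and promoters from RefSeq. No 2 libraries were duplicates (chi-square per degree of freedom 42.5 or more for each pair). The fits were tested on simulated counts. Alternatives were DESeq2 1.42.0, limma 3.58.1 on log2 FPKM, other normalizations and filters, counts divided by 4, the replicate number as a block, and leaving out single libraries. An item withheld for evaluation is not reported here.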

Additional observations from a re-analysis of the deposited data

How the results depend on the processing

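Low counts limit PGF, FLT1 and KDR, whose direction or size rests on few fragments. Under 16 alternatives the log2 fold changes of VEGFA (0.13 to 0.23), VEGFC (0.47 to 0.86), NRP1 (0.05 to 0.16), NRP2 (0.14 to 0.32), VEGFB (-0.20 to -0.02) and FLT4 (-0.22 to -0.01) kept their direction. The only member to pass an adjusted p of 0.05 in any of them was VEGFC in DESeq2, where the value was 0.80, so that 1 member was called there; its adjusted p ranged from 0.00241 to 0.405. PGF turned to 0.01 without NC-shRNA replicate 2 (lowest value -1.04 with a library left out). KDR could be fitted under 11 alternatives, with adjusted p from 0.156 to 0.447. The cause of these shifts was not tested.

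PRMT5 ranged from -1.66 to -1.54 with a library left out. Under a replicate block it stayed at -1.62 but lost its call (adjusted p = 0.144), and the genes called fell from 14 to 0, with 2382 at an unadjusted p under 0.05. The labels give only numbers, and same-numbered libraries did not deviate together (correlations 0.0349, -0.0103 and -0.015), so a pairing is not shown. DESeq2 called 530 genes (303 higher and 227 lower), limma on log2(FPKM + 1) without a filter 5, and the fits with a library left out 8 to 25 (8 without NC-shRNA replicate 2, 25 without NC-shRNA replicate 3 and 9 without PRMT5-shRNA replicate 1). Past the looser thresholds were 775 genes, against 496 with a CPM of 1 or more in 3 libraries, 152 in limma with a pseudocount of 1, 437 with 0.1, 152 in limma without a filter, and 747 to 951 with a library left out. Members past them were VEGFC and KDR, but KDR passed the low-count filter only through the PRMT5-shRNA libraries and so had to differ. VEGFC is thus the only member to set against the 2.53% of all genes tested that were past them in the higher direction. With KDR counted, the 2 members became 1 with the stricter filter, 0 in limma with a pseudocount of 1 and 1 with 0.1. They became 0 in limma without a filter and 1 with counts divided by 4. In these fits filters removed KDR or the pseudocount understated low genes. With a library left out, the count including KDR stayed at 2.

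The median log2 fold change of the signalling genes moved from 0.01 to 0.06 by total counts, 0.04 and 0.05 in limma with a pseudocount of 1 and 0.1, and 0.06 in limma without a filter. Total counts alone shifted the median of all genes by 0.049. The median of the maturation genes ranged from -0.17 (without PRMT5-shRNA replicate 3) to 0.02 (without PRMT5-shRNA replicate 1), and that of the other angiogenic factors was 0.06 in limma without a filter and 0.08 to 0.16 with a library left out (0.08 without PRMT5-shRNA replicate 2). The scales per transcript length in the report were chosen after seeing the data.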

Other observations

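By the Pearson correlation of log2 CPM over the 6 libraries, the genes whose pattern was most like that of VEGFA among the 20294 others tested were MAPK8IP1 (0.998), SLC4A7 (0.993) and IFRD1 (0.993), and 144 genes were above 0.95. For KDR they were GTF2IRD1 (1.0), SH3D19 (0.999) and PDP1 (0.995), with 208 genes above 0.95. For NRP1 they were GNB5 (0.996), EEF1AKMT3 (0.987) and AP000873 (0.985), with 33 genes above 0.95. The 6 libraries are shared by all these values and 20294 genes were searched for each, so the correlations are a description of these libraries and carry no test.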
